A study of Rattus norvegicus with 48 samples.

Results

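The 4 mature miRNAs described here, rno-miR-15b-5p, rno-miR-16-5p, rno-miR-195-5p and rno-miR-497-5p, were taken by their identifiers from the read counts of every library, among 763 listed miRNAs of which 629 had at least 1 read. They carry 1 shared seed and, at the location taken for each, lie as 2 pairs of neighbours, miR-15b with miR-16 and miR-497 with miR-195. Small RNA was sequenced from 32 sera and 16 ulna bones of male rats, which were either wild-type (WT, Zucker lean, ZDF +/+) or Zucker Diabetic Fatty (ZDF, fa/fa, homozygous for a mutated leptin receptor and a model of type 2 diabetes). All rats ate a diet rich in fat and carbohydrate, had a subcritical defect made in the midshaft of the femur, and were treated for 12 weeks from an age of 11 weeks. In the serum set, WT rats had received placebo (n = 5), 75 µg/kg of parathyroid hormone (PTH, n = 5) or 25 mg/kg of an anti-sclerostin antibody (anti-scl, n = 4). ZDF rats had received the same (n = 5, 5 and 4) or insulin raised from 0.5 IU to 13 IU (n = 4). The bone set held 4 groups of n = 4, that is placebo and PTH in either genotype. The study traces the anti-scl rats to a different report from those of the placebo rats, so antibody and source experiment cannot be told apart. It traces the placebo rats to 2 reports, the PTH rats to 1 of these and the insulin rats to the other. The labels do not say which placebo rat belongs to which report, and the part of the source in these comparisons was not tested. Following the study's numbers of animals, each library of a tissue was taken as 1 rat. Most bones came from rats that also gave serum, but the labels do not link the samples.

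A miRNA directs the Argonaute complex to messenger RNAs through its seed, the bases near its 5' end, and lowers their translation and stability. MiRNAs of the miR-15/16 family are known for holding back cyclins, cyclin-dependent kinases and the survival factor Bcl2, and thereby the cell cycle. MiR-16 is plentiful in red blood cells, whereas miR-195 and miR-497 are better known from muscle, vessel wall and bone, where they have been tied to growth arrest and to the vessels of bone.

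The mature sequences are shown because the seed, in capitals (bases 2 to 8 from the 5' end), is what unites the family, while the 3' parts let the reads be told apart. They are RefSeq entries on the assembly GRCr8, in which all 4 members were found.
rno-miR-15b-5p: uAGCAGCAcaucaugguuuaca
rno-miR-16-5p: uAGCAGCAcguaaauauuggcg
rno-miR-195-5p: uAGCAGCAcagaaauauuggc
rno-miR-497-5p: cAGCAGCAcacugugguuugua
rno-miR-322-5p: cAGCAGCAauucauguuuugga
rno-miR-503-5p: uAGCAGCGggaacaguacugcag

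MiR-15b-5p lies at chr2:155555197-155555218 and miR-16-5p at chr2:155555343-155555364, both on the plus strand within the protein-coding gene Smc4, which encodes a subunit of condensin, with 124 bases between the mature sequences. MiR-497-5p lies at chr10:55450172-55450193 and miR-195-5p at chr10:55450509-55450529 on the plus strand, 315 bases apart. A single location was taken for each mature miRNA, and whether other genes yield the same mature sequence was not checked. Outside the 4 members, miR-322-5p has the same bases 2 to 8, and miR-503-5p shares bases 2 to 7 but carries another base at position 8. MiR-15a-5p, taken as a relative of the family by its name, has no entry in the sequence table. MiR-16 and miR-195 are the closest pair and differ at 2 of 21 positions (G10A and U11G, counted from the 5' end, with the base of miR-16 first). The other pairs differ at 6 to 11 positions, with miR-15b closer to miR-497 (6 of 22) than to its neighbour miR-16 (8 of 22).

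MiRNA reads numbered 28015 to 205664 per serum (median 86230) and from 41627 to 1398702 per bone (median 237033), which was 0.529% to 4.09% of all reads in serum and 1.58% to 21.5% in bone. Osteoblast, mesenchymal and liver marker miRNAs fitted the labelled tissues. After scaling over all 48 libraries, the summed osteoblast and mesenchymal markers (miR-199a-3p, miR-199a-5p, miR-214-3p and miR-218a-5p) held 13765 to 50489 CPM in bone and 189 to 3067 in serum. The summed liver markers held 0 to 11.0 CPM in bone and 90.9 to 3584 in serum. MiR-122-5p, the main liver miRNA, was at 0 in 9 bones. Muscle markers were also high in bone (48027 to 438044 CPM), above the osteoblast and mesenchymal sum in every bone. Levels are given as CPM (read counts relative to the miRNA reads of the library, after TMM scaling within a tissue unless scaling over all 48 libraries is named). In bulk RNA, fewer cells of a type and less RNA per cell cannot be told apart.

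MiR-16-5p was the most read member in every serum and in all bones but 1, the second WT PTH bone, where it had 84 reads against 98 of miR-497-5p. It took 2.96% to 11.4% of all miRNA reads in serum (median 6.97%), where it ranked from the 2nd to the 8th most read miRNA, and 0.202% to 3.55% in bone (median 1.81%), where it ranked from 6 to 51. MiR-497-5p followed in bone with a median of 0.767% of miRNA reads and a rank between 20 and 46. In serum miR-497-5p and miR-15b-5p were close to each other, with medians of 0.115% and 0.0843%. MiR-195-5p had a median of 0.0908% in bone and 0.00341% in serum. MiR-15b-5p was the least read member in bone, with a median of 0.00583%. These are shares of reads, and how evenly the different sequences were captured during library preparation was not tested.

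The makeup of the family therefore differed between the compartments. Of the summed reads of the 4 members, miR-322-5p and miR-15a-5p, whose seed was not checked here, miR-16-5p held 77.1% to 89.4% in serum and 33.9% to 65.7% in bone. The chromosome 10 pair, miR-195-5p and miR-497-5p, made up 0.309% to 8.45% of the reads of the 4 members in serum (median 1.66%) and 26.1% to 60.2% in bone (median 34.2%), so that the lowest bone lay above the highest serum. MiR-15a-5p held 8.73% to 20.3% of the same sum in serum (median 12.7%) and 8.11% to 10.3% in bone (median 9.52%), so its share reached higher in serum, with some overlap. All 4 members together took 3.06% to 11.9% of miRNA reads in serum (median 7.25%) and 0.507% to 5.47% in bone (median 2.55%).

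**Figure D1:**
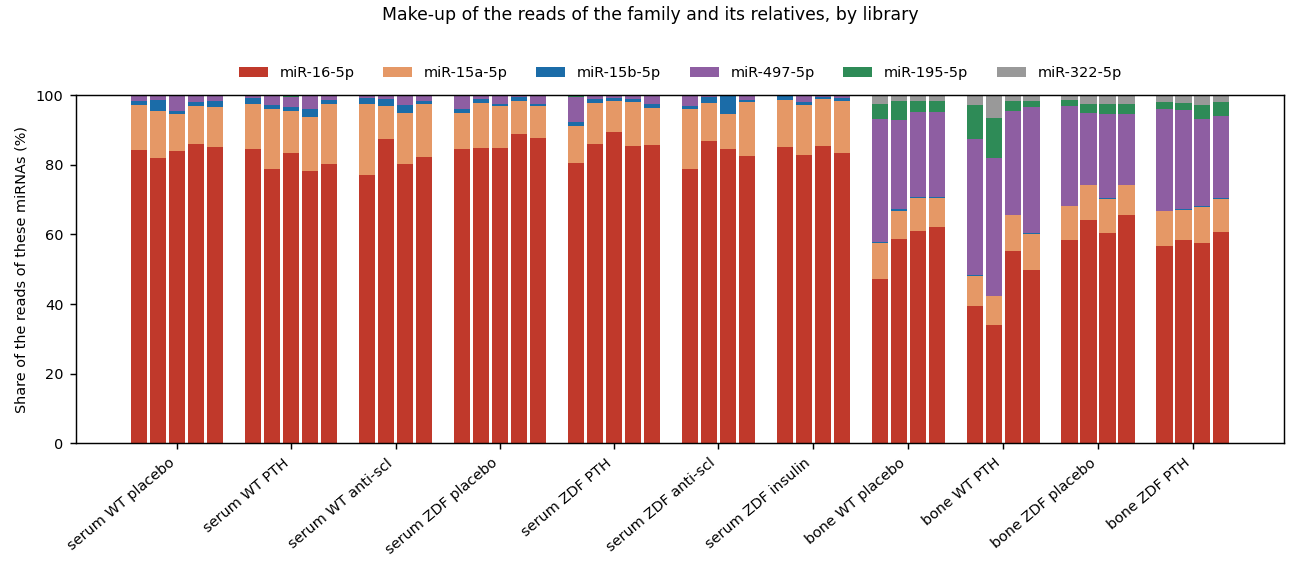
Share of the summed reads of the 4 members, miR-15a-5p and miR-322-5p that belonged to each miRNA (percent, stacked bars, 1 bar per library, grouped by tissue, genotype and treatment). MiR-16-5p fills 77.1% to 89.4% of the serum bars, and miR-195-5p with miR-497-5p form a broad band in the bone bars only.

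In placebo rats the pairs moved in opposite directions between the compartments, with miR-195-5p and miR-497-5p higher in bone and miR-15b-5p and miR-16-5p higher in serum. All values of this comparison were scaled over the 48 libraries and tested with the quasi-likelihood test of edgeR, with FDR as the Benjamini-Hochberg adjusted p over all miRNAs tested. At FDR < 0.2, 170 of 214 miRNAs (79.4%) differed in WT rats, 91 of them higher in bone (42.5%) and 79 lower (36.9%), and 170 of 198 (85.9%) in ZDF rats, 93 higher (47%) and 77 lower (38.9%). A call by itself was therefore common, and the members are described below by the size of the difference. The median log2FC of all miRNAs tested was 0.27 in WT and 0.31 in ZDF rats, and 0.026 and -0.039 with DESeq2, so the zero line of this comparison shifts by about that much with the scaling.

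MiR-195-5p showed the largest difference of the 4. In WT placebo rats it held 1110, 3447, 1453 and 1463 CPM in bone and 26.0, 29.6, 141, 47.9 and 102 CPM in serum. The lowest bone was above the highest serum, and the log2FC was 4.72 (SE 0.60, 26.3-fold, edgeR FDR = 8.81e-06). In ZDF placebo rats the bones held 415, 1011, 925 and 709 CPM and the sera 50.5, 20.9, 68.9, 13.7 and 24.3 CPM, with a log2FC of 4.39 (SE 0.49, 21.0-fold, edgeR FDR = 1.19e-06). The serum values rest on few reads: 6 sera had 0 reads of miR-195-5p, 15 had 1 to 3 and 11 had more than 3. In the 6 sera at 0, a count of 0 allows up to 3 reads, or 26.5 to 89.3 CPM. The same 6 sera held 2253 to 11179 reads of miR-16-5p, its closest sequence, so these reads of miR-16-5p left no read on miR-195-5p. Per 1000 reads of miR-16-5p there were 0 to 4.73 reads of miR-195-5p in serum (median 0.458) and 28.6 to 345 in bone (median 50.5).

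MiR-497-5p, encoded next to miR-195, was also higher in bone but by less. WT placebo bones held 8724, 16222, 11290 and 11261 CPM and the sera 1263, 1555, 4398, 1149 and 2284 CPM (log2FC 2.48, SE 0.45, 5.57-fold, edgeR FDR = 0.000151). In ZDF rats the means were 6881 ± 1366 CPM (SD, n = 4) in bone and 1466 ± 989 CPM (SD, n = 5) in serum, with a log2FC of 2.23 (SE 0.48, edgeR FDR = 0.000525). Every bone was above every serum of its genotype.

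The chromosome 2 pair was lower in bone. MiR-16-5p held 11731, 37059, 28442 and 28648 CPM in WT placebo bones and 70110, 104286, 83064, 51008 and 128874 CPM in the sera (log2FC -1.72, SE 0.43, edgeR FDR = 0.00211). In ZDF rats it was 18489 ± 4670 CPM (SD, n = 4) in bone and 71114 ± 23929 CPM (SD, n = 5) in serum (log2FC -1.94, SE 0.34, edgeR FDR = 9.27e-05). MiR-15b-5p differed more than its neighbour, with 60.1, 332, 131 and 93.5 CPM in WT bones and 905, 4163, 679, 563 and 2818 CPM in WT sera (log2FC -3.55, SE 0.72, 11.7-fold lower, edgeR FDR = 0.000444). In ZDF rats it held 44.8 ± 21.0 CPM (SD, n = 4) in bone and 738 ± 357 CPM (SD, n = 5) in serum, which was 16.0-fold lower (log2FC -4.00, SE 0.53, edgeR FDR = 6.63e-06).

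The groups did not overlap for any of the 4 members in either genotype, and the exact two-sided permutation p was 0.0159 each time, the smallest that 4 against 5 libraries allow. Groups that did not overlap were seen for 57.5% of all miRNAs tested in WT and 67.2% in ZDF rats. Of the relatives, miR-322-5p behaved like the chromosome 10 pair, with 860 ± 204 CPM (SD, n = 4) in WT bone and 143 ± 62.7 CPM (SD, n = 5) in WT serum (log2FC 2.57, SE 0.46, edgeR FDR = 0.000138). MiR-15a-5p behaved like miR-16-5p, with 3981 ± 1096 CPM (SD, n = 4) in WT bone and 12339 ± 4561 CPM (SD, n = 5) in WT serum (log2FC -1.63, SE 0.41, edgeR FDR = 0.0021). Summed erythrocyte markers (miR-451-5p, miR-144-3p, miR-144-5p and miR-486) moved in the same direction as miR-16-5p, with 8139 to 13989 CPM over all bones and 22330 to 428100 CPM over all sera, and 3 of the 4 were called lower in bone in either genotype. Summed muscle markers (miR-1-3p, miR-133a-3p, miR-133b-3p and miR-206-3p) moved in the direction of the chromosome 10 pair without overlap, with 48027 to 438044 CPM over all bones and 109 to 43233 CPM over all sera, as did the osteoblast and mesenchymal markers given above. All 4 of 4 miRNAs of either list were called higher in bone in both genotypes. The part of these cells in the differences was not tested.

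**Figure D2:**
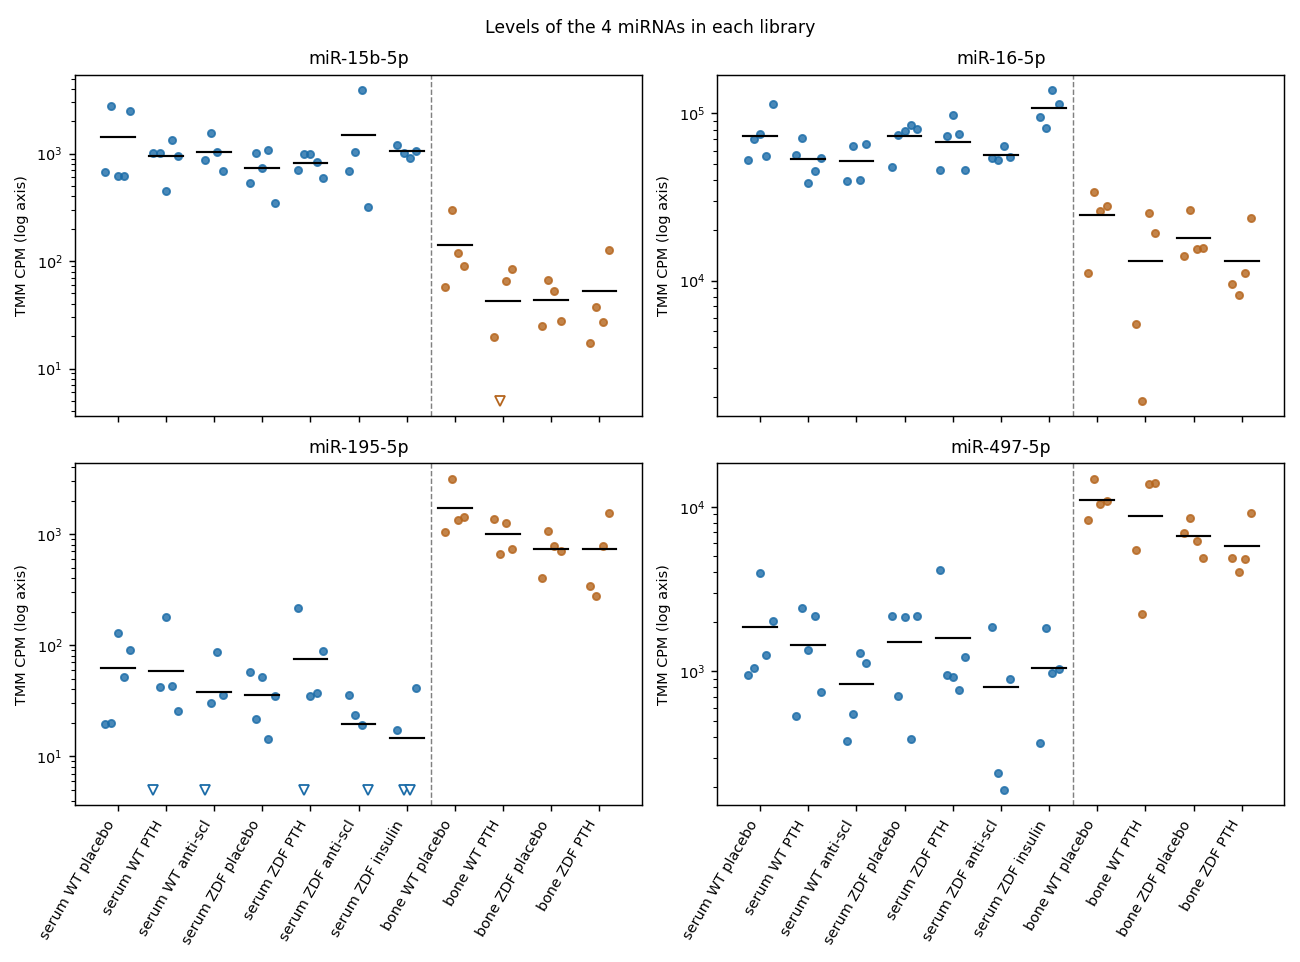
CPM of each member by library on a log axis, in the 7 serum and 4 bone groups, with the group mean as a black line and libraries at 0 reads as open triangles at the bottom. CPM was scaled within each tissue. On this scale the bones sit below the sera for miR-15b-5p and above them for miR-195-5p. For miR-497-5p the lowest bones (from 2225 CPM) reach below the highest sera (up to 4108 CPM). Scaled over all 48 libraries, the highest bone of miR-15b-5p (332 CPM) lies above the lowest serum (225 CPM), while miR-195-5p stays apart. No group of a tissue stands clear of the group next in order.

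The ratios within the pairs were then examined, since neighbours on a chromosome can be cut from 1 primary transcript. Other genes that yield the same mature miRNA were not looked for. On the log2 scale of reads with 0.5 added, miR-16-5p exceeded miR-15b-5p by 4.03 to 7.81 in serum (median 6.27) and by 6.80 to 9.05 in bone (median 7.95). MiR-497-5p exceeded miR-195-5p by 2.85 to 8.07 in serum (median 4.70) and by 1.74 to 4.25 in bone (median 2.96). Neither ratio was fixed, and each differed in its median between the compartments by more than 1 unit. The ratio of miR-16-5p to miR-15a-5p was steadier, at 1.92 to 3.36 in serum (median 2.74) and 1.97 to 2.96 in bone (median 2.62). Among bones, the ratio of miR-16-5p to miR-15b-5p was 7.59 ± 0.60 in WT placebo, 8.70 ± 0.43 in ZDF placebo, 7.82 ± 0.50 in WT PTH and 8.19 ± 0.69 in ZDF PTH rats (SD, n = 4 each). These ratios are descriptions and were not tested between groups. In bone the ratio to miR-15b-5p rests on few reads, with 10 or fewer in 8 of 16 bones. In serum the ratio of miR-497-5p to miR-195-5p rests on few reads as well. In the 6 sera without a read of miR-195-5p, which gave ratios from 5.83 to 8.07, it is set by the 0.5 added, and in the other sera it reached 5.64.

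**Figure D3:**
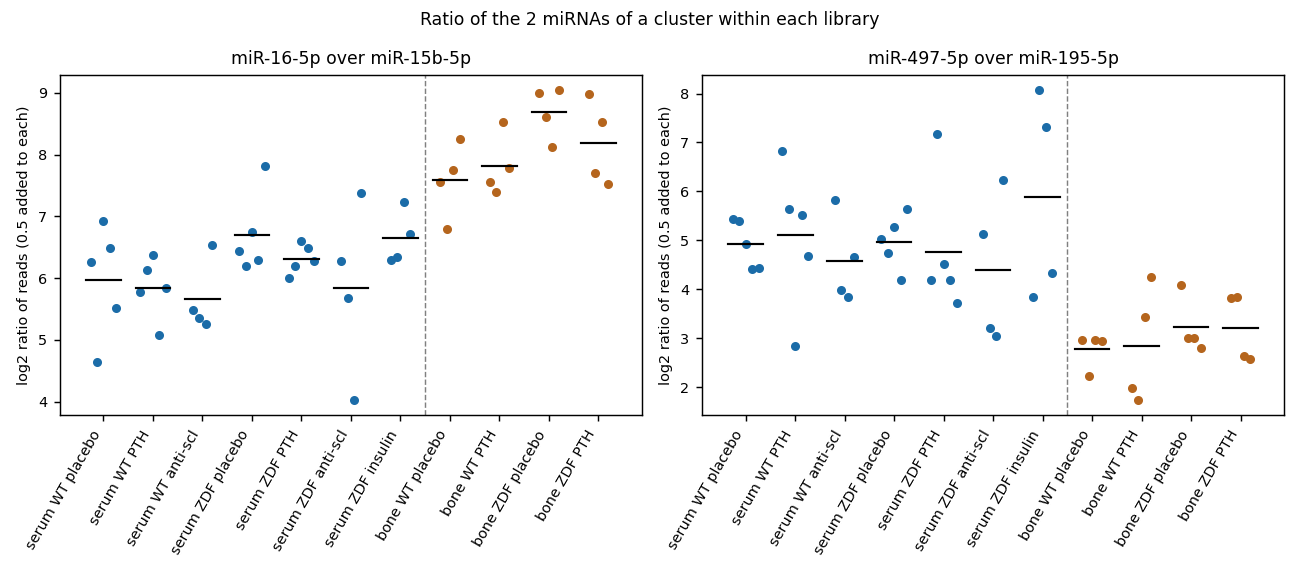
Log2 ratio of reads (0.5 added) of miR-16-5p to miR-15b-5p and of miR-497-5p to miR-195-5p by library in the 11 groups. The first ratio reaches 9.05 in bone against 7.81 in serum, and the second reaches 4.25 in bone, while its serum points from 5.83 to 8.07 are the 6 sera without a read of miR-195-5p, placed by the 0.5 added.

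Within serum the group means of each member lay closer together than the lowest and highest rat of the most variable group. For miR-16-5p, whose means spanned 2.06-fold, this did not hold in every group, such as ZDF anti-scl (52675 to 63887 CPM). MiR-16-5p was highest under insulin (107187 ± 24176 CPM, SD, n = 4) and then ran through WT placebo (73623 ± 24810), ZDF placebo (73183 ± 14783), ZDF PTH (67843 ± 22114), ZDF anti-scl (56525 ± 5015) and WT PTH (53131 ± 12493) to WT anti-scl (52083 ± 14303). For miR-15b-5p the highest mean was that of ZDF anti-scl (1484 ± 1640 CPM, SD, n = 4) and the lowest that of ZDF placebo (739 ± 308 CPM, SD, n = 5). For miR-497-5p the means ran from 1853 ± 1267 CPM in WT placebo (SD, n = 5) to 803 ± 785 CPM in ZDF anti-scl (SD, n = 4). In bone, WT placebo was highest for all 4 members. Neighbouring groups overlapped at every step of every order, in serum and in bone. From the lowest to the highest library, miR-16-5p varied 3.60-fold in serum, miR-15b-5p 12.3-fold and miR-497-5p 21.5-fold, whereas in bone miR-16-5p varied 17.7-fold and miR-497-5p 6.63-fold.

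Insulin in ZDF rats was the only treatment or genotype comparison within a tissue in which a member passed FDR < 0.2, and that call depended on the processing. MiR-16-5p held 94885, 82387, 137961 and 113513 CPM in the sera of insulin-treated ZDF rats and 47584, 74380, 78838, 84764 and 80350 CPM in those of placebo ZDF rats. The groups overlapped by 1 insulin serum that lay below the highest placebo serum. The log2FC was 0.55 (SE 0.25, 1.46-fold, edgeR FDR = 0.181), with an exact two-sided permutation p of 0.0317 where 0.0159 is the smallest possible. In this comparison 39 of 147 miRNAs were called (26.5%), 20 higher (13.6%) and 19 lower (12.9%). With the fit to miRNA read totals in place of TMM the median of all miRNAs moved from -0.0047 to -0.39, the calls became 9 higher and 50 lower, and miR-16-5p had a log2FC of 0.16 (FDR = 0.644). The FDR of miR-16-5p was also above the threshold without the filter on low counts (0.320) and with all serum groups in 1 fit (0.387), and it stayed below it in 3 of the 9 fits that left out 1 rat. It was above it without insulin rat 1 (0.271) or 3 (0.488) and without placebo rat 1 (0.372), 2 (0.305), 4 (0.209) or 5 (0.263).

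MiR-15a-5p, the relative by name, rose under insulin by more. It held 15101, 14318, 21942 and 20465 CPM under insulin against 5872, 11276, 11102, 9057 and 8513 CPM under placebo. The groups did not overlap, as for 7.48% of all miRNAs tested, and the log2FC was 0.97 (SE 0.26, 1.96-fold, edgeR FDR = 0.0536). Without the insulin rat with the highest value the FDR was 0.290. As a result the log2 ratio of miR-16-5p to miR-15a-5p was 2.47 to 2.65 under insulin and 2.72 to 3.24 under placebo. MiR-15b-5p (log2FC 0.49, SE 0.33, FDR = 0.360) and miR-497-5p (log2FC -0.52, SE 0.50, FDR = 0.540) did not pass the edgeR test. MiR-195-5p had 1, 0, 0 and 2 reads under insulin and 3, 2, 7, 1 and 2 under placebo, and was too low to be tested in any serum comparison.

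Erythrocyte markers moved with the insulin group. All 4 of 4 were called higher, miR-451-5p by a log2FC of 2.42, miR-144-3p by 1.10, miR-486 by 0.88 and miR-144-5p by 0.76. Their sum was 233362 to 381326 CPM under insulin and 87066 to 159349 CPM under placebo. A common measure of hemolysis, the excess of miR-451-5p over miR-23a-3p on the log2 scale, was 3.18 to 3.79 under insulin and -0.49 to 1.41 under placebo. Since these ranges did not overlap, the hemolysis measure and insulin cannot be told apart in this comparison. With this measure as a covariate in edgeR no miRNA was called, including miR-16-5p (log2FC 0.79, FDR = 0.877) and miR-15a-5p (log2FC 0.62, FDR = 0.877). The covariate nearly repeats the groups, so this loss of calls cannot decide what part hemolysis had. The other marker lists gave 3 of 3 liver miRNAs lower, 1 of 4 leukocyte and platelet miRNAs lower (miR-150-5p), and none of the 3 osteoblast and mesenchymal and 1 muscle miRNAs tested.

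**Figure D4:**
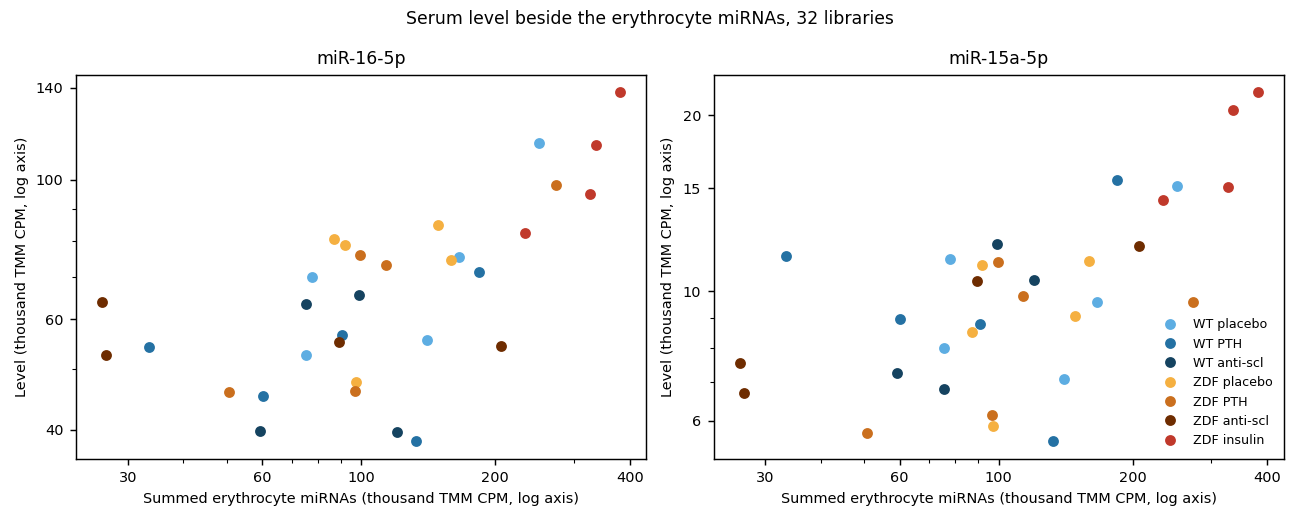
Level of miR-16-5p and of miR-15a-5p against the summed erythrocyte miRNAs in the 32 sera (in units of 1000 CPM, log axes), colored by group. The 4 insulin sera lie at the right, at 233362 to 381326 CPM of erythrocyte miRNAs, with 1 WT placebo and 1 ZDF PTH serum among them.

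The genotype comparison in placebo bone gave lower means in ZDF than in WT rats for all 4 members, and none passed FDR < 0.2. MiR-15b-5p had 56.99, 302, 120 and 90.7 CPM (13, 124, 74 and 67 reads) in WT bones and 25.0, 67.1, 52.6 and 27.4 CPM (5, 70, 8 and 6 reads) in ZDF bones. MiR-195-5p had 1052, 3132, 1333 and 1418 CPM in WT and 405, 1072, 776 and 699 CPM in ZDF bones. MiR-497-5p had 8267, 14742, 10362 and 10914 CPM in WT and 6912, 8577, 6224 and 4861 CPM in ZDF bones. For each of these 3 members the overlap came from the same 2 libraries, the first WT bone and the second ZDF bone, and the other bones were ordered by genotype. Over all miRNAs tested, 8.64% had groups that did not overlap. The second ZDF bone was also the library with the most miRNA reads (1398702).

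The log2FC was -1.66 (SE 0.55, FDR = 0.245) for miR-15b-5p, -1.23 (SE 0.42, FDR = 0.274) for miR-195-5p and -0.74 (SE 0.30, FDR = 0.300) for miR-497-5p by edgeR. The exact two-sided permutation p was 0.0571 for each, where 4 against 4 libraries allow 0.0286. MiR-16-5p had 11117, 33678, 26104 and 27764 CPM in WT and 14123, 26561, 15530 and 15704 CPM in ZDF bones, with a log2FC of -0.46 (SE 0.38, edgeR FDR = 0.575, exact permutation p = 0.429). Over all miRNAs 0 of 243 (0%) were called by edgeR, 37 had an unadjusted p below 0.05 (15.2%), and DESeq2 called 32. The median of the 4 members was -0.98 and that of all miRNAs tested -0.039.

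These calls turned on the processing. With DESeq2 the FDR was 0.0697 for miR-15b-5p and miR-195-5p and 0.133 for miR-497-5p, with RLE size factors 0.170, 0.170 and 0.189, and without the filter on low counts 0.125 and 0.127 for the first 2. Each of these settings also called more miRNAs over all than the main fit, with the counts given below. Without the first WT bone, 81 miRNAs were called, all 4 members among them, with an FDR of 0.0813 for miR-15b-5p and miR-195-5p, 0.105 for miR-497-5p and 0.181 for miR-16-5p. Without the second ZDF bone the FDR was 0.0854, 0.0854 and 0.127 for miR-15b-5p, miR-195-5p and miR-497-5p.

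Markers of bone-forming cells and of leukocytes and platelets moved in the same direction in these bones. The summed osteoblast and mesenchymal miRNAs were 23722 to 45883 CPM in WT and 14753 to 18759 CPM in ZDF bones, and the summed leukocyte and platelet miRNAs (miR-142-3p, miR-142-5p, miR-150-5p and miR-223-3p) were 5833 to 8289 and 4125 to 5210 CPM. Neither sum overlapped, although 0 of 4 miRNAs of either list were called. Summed erythrocyte miRNAs overlapped, at 9876 to 12572 CPM in WT and 8287 to 11290 CPM in ZDF bones, as did the summed muscle miRNAs, at 53567 to 424538 CPM in WT and 77020 to 456591 CPM in ZDF bones. The part of these cells in the levels of the 4 members was not tested.

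PTH in WT bone left the members without a call as well. MiR-15b-5p had 1, 0, 12 and 26 reads after PTH (19.6, 0, 66.0 and 85.3 CPM), and its log2FC against placebo was -1.38 (SE 0.64, FDR = 0.317). In the bone at 0, a count of 0 allows up to 3 reads, or 72.1 CPM. MiR-16-5p had 5521, 1907, 25375 and 19244 CPM after PTH (log2FC -0.92, SE 0.64, FDR = 0.526). Here 23 of 227 miRNAs were called by edgeR (10.1%), and miR-15b-5p was among the calls with DESeq2 (FDR = 0.197), without the filter on low counts (0.161), without the first WT placebo bone (0.0918) and without the fourth PTH bone (0.161). Over all miRNAs the calls also rose without the filter and varied widely without a rat, with the counts given below. MiR-195-5p had 1370, 658, 1265 and 731 CPM (log2FC -0.78, SE 0.49, FDR = 0.488), and miR-497-5p had 5442, 2225, 13713 and 13910 CPM (log2FC -0.32, SE 0.53, FDR = 0.832).

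The first 2 of these WT PTH bones were the shallowest bone libraries, with 54497 and 41627 miRNA reads, and they were also the lowest WT bones for miR-16-5p and miR-497-5p. Without both, an alternative chosen after the data were seen, edgeR called no miRNA at all, so the lack of a call was not particular to the members. The log2FC was then -0.95 for miR-15b-5p, -0.22 for miR-16-5p, -0.86 for miR-195-5p and 0.23 for miR-497-5p. The size for miR-16-5p and the direction for miR-497-5p thus rested on these 2 libraries. Of the marker lists, 1 of 4 muscle, 1 of 4 osteoblast and mesenchymal and 1 of 4 leukocyte and platelet miRNAs were called lower after PTH, and the summed muscle miRNAs were 47869 to 69008 CPM after PTH and 53567 to 424538 CPM under placebo. Their part in the levels of the members was not tested.

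In ZDF bone, PTH gave a log2FC of -0.45 (SE 0.37) for miR-16-5p, 0.0051 (SE 0.52) for miR-195-5p and -0.21 (SE 0.32) for miR-497-5p. Their edgeR FDR was 0.784 or more, and 0 of 216 miRNAs (0%) were called by edgeR or DESeq2, with 11 at an unadjusted p below 0.05 (5.09%). After PTH the ZDF bones held 9481, 8233, 11147 and 23657 CPM of miR-16-5p, 344, 280, 782 and 1553 CPM of miR-195-5p, and 4882, 4021, 4846 and 9213 CPM of miR-497-5p. The fourth bone was highest for all 3, and also for miR-15b-5p, which had 7, 9, 5 and 111 reads (17.4, 37.6, 27.3 and 127 CPM) and was too low to be tested here. Against WT bone under PTH, the log2FC of ZDF bone was 0.010 (SE 0.61) for miR-16-5p, -0.44 (SE 0.55) for miR-195-5p and -0.62 (SE 0.53) for miR-497-5p, with 5 of 209 miRNAs called (2.39%) and 7.18% without an overlap of the groups. Without both shallow WT bones miR-497-5p was called in this comparison (log2FC -1.21, edgeR FDR = 0.106) among 42 miRNAs. Placebo samples were shared by the PTH and genotype comparisons of a genotype or tissue, so these differences were not independent.

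In serum the genotype was compared under each treatment. Under placebo, miR-15b-5p had 680, 2792, 615, 613 and 2506 CPM in WT and 536, 1009, 728, 1075 and 349 CPM in ZDF rats. The higher WT mean came from 2 sera, and the other 3 WT sera lay among the ZDF sera (log2FC -0.95, SE 0.48, edgeR FDR = 0.434). It was called without the filter on low counts (FDR = 0.150) and without the first (0.122) or the third (0.194) WT serum. More miRNAs were called over all without the filter than in the main fit, and the counts without a rat varied, as given below with the dependence on processing. MiR-16-5p had a log2FC of -0.0086 (SE 0.29) and miR-497-5p one of -0.29 (SE 0.49), and 9 of 167 miRNAs were called (5.39%). The sera of WT placebo rats held 949, 1043, 3987, 1252 and 2032 CPM of miR-497-5p and those of ZDF placebo rats 2180, 709, 2148, 387 and 2163 CPM. The ranges overlapped, with 1 WT serum above every ZDF serum and 2 ZDF sera below every WT serum.

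Under PTH the log2FC of ZDF against WT serum was -0.21 (SE 0.41) for miR-15b-5p, 0.35 (SE 0.34) for miR-16-5p and 0.14 (SE 0.56) for miR-497-5p. No miRNA of 157 was called by edgeR (0%) or DESeq2, and 4 had an unadjusted p below 0.05 (2.55%). Under anti-scl the values were 0.53 (SE 0.65), 0.12 (SE 0.29) and -0.12 (SE 0.71). Of 160 miRNAs 0 were called by edgeR (0%), 11 had an unadjusted p below 0.05 (6.88%) and DESeq2 called 9. The direction of the anti-scl values depended on single rats for all 3 members.

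PTH against placebo in serum gave log2FC values from -0.60 (SE 0.52, miR-15b-5p) to -0.36 (SE 0.51, miR-497-5p) in WT rats, with miR-16-5p at -0.47 (SE 0.33). In ZDF rats they lay from -0.11 (SE 0.30, miR-16-5p) to 0.15 (SE 0.38, miR-15b-5p), with miR-497-5p at 0.074 (SE 0.55). Of 172 miRNAs in WT and 151 in ZDF rats, 0 were called by edgeR (0% each) or DESeq2, and 3 (1.74%) and 4 (2.65%) had an unadjusted p below 0.05. The sera of PTH-treated rats held 38365 to 71341 CPM of miR-16-5p in WT and 46005 to 98129 CPM in ZDF rats.

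Anti-scl against placebo gave the lowest group means of miR-497-5p in serum. It had 379, 553, 1293 and 1118 CPM in WT rats given the antibody (log2FC -1.15, SE 0.49, edgeR FDR = 0.441) and 1874, 241, 191 and 905 CPM in ZDF rats given it (log2FC -0.99, SE 0.71, edgeR FDR = 0.656). Both groups overlapped with their placebo group. In WT rats it was called without the filter on low counts (FDR = 0.191) and without the first (0.126) or second (0.164) placebo serum, and in ZDF rats without the first antibody serum (0.161). Without the filter more miRNAs were called over all as well, and fits of that kind made calls in simulated data without a change. The counts of all calls without the filter or without a rat are given below, with the dependence on processing. Of 170 miRNAs in WT rats 0 were called by edgeR (0%), 14 had an unadjusted p below 0.05 (8.24%) and DESeq2 called 5, and in ZDF rats 3 of 155 were called (1.94%).

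MiR-16-5p was 52083 ± 14303 CPM (SD, n = 4) in WT and 56525 ± 5015 CPM (SD, n = 4) in ZDF rats given anti-scl, with log2FC values of -0.50 (SE 0.36) and -0.37 (SE 0.24). The values of miR-15b-5p had opposite signs, at -0.47 (SE 0.50) in WT and 1.02 (SE 0.61, edgeR FDR = 0.600) in ZDF rats, where the antibody sera held 685, 1028, 3906 and 318 CPM. The positive value rested on the third rat, and without it the log2FC was -0.10. The difference between the genotypes was tested by an interaction term and was 1.49 (SE 0.86, edgeR FDR = 0.817).

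No interaction of genotype with treatment was called for a member. For PTH in serum the interaction was 0.75 (SE 0.63) for miR-15b-5p, 0.36 (SE 0.40) for miR-16-5p and 0.43 (SE 0.80) for miR-497-5p. For PTH in bone it was 1.70 (SE 0.93, FDR = 0.808) for miR-15b-5p, 0.79 (SE 0.72) for miR-195-5p, 0.47 (SE 0.79) for miR-16-5p and 0.11 (SE 0.64) for miR-497-5p. By edgeR 0 miRNAs (0% each) were called of 182 for PTH in serum, 190 for anti-scl in serum and 238 for PTH in bone. An unadjusted p below 0.05 was reached by 9 (4.95%), 6 (3.16%) and 12 (5.04%) of them, and DESeq2 called 0, 0 and 1.

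**Figure D5:**
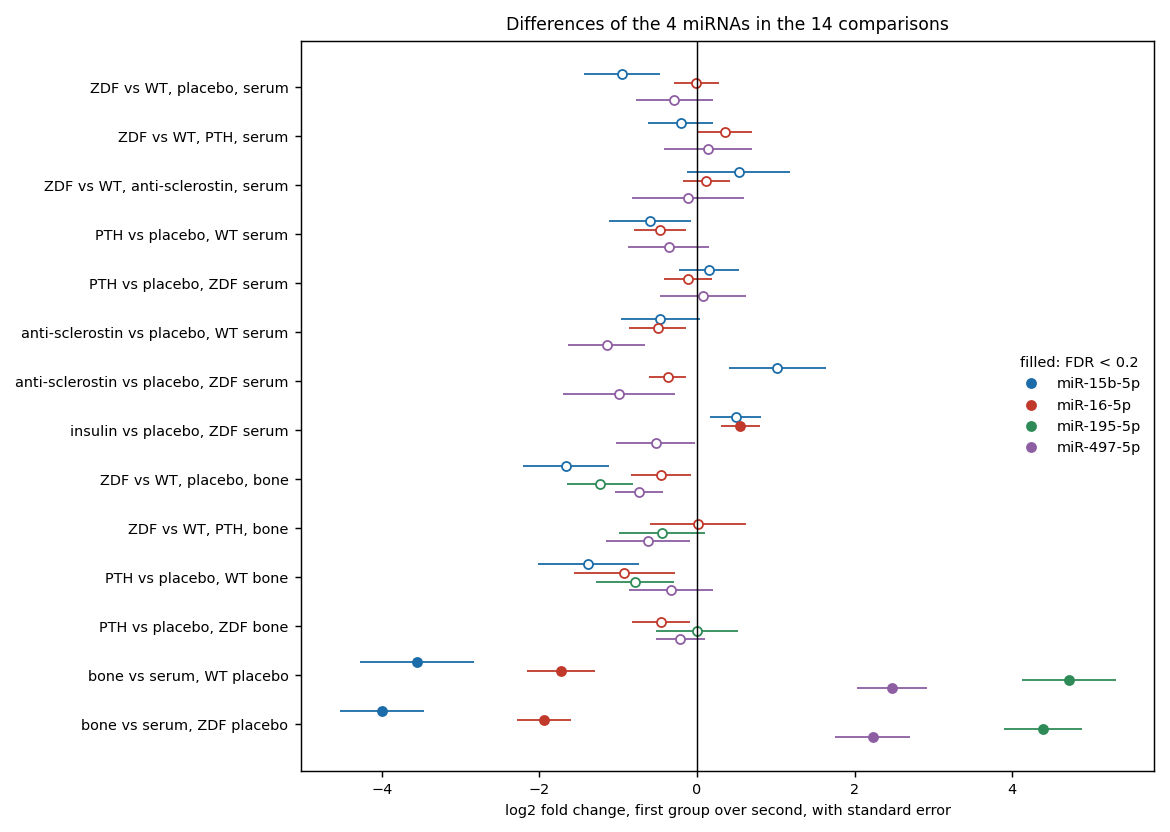
Log2FC (point) and its standard error (bar) of each member in the 14 comparisons of groups, with filled points at FDR < 0.2. Both bone against serum comparisons stand apart, from -4.00 for miR-15b-5p to 4.72 for miR-195-5p, and of the others only miR-16-5p under insulin is filled.

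The likeness of the members across libraries is given as Spearman's rho, as a description and without a test, since the libraries share groups, depth and scaling. In bone (n = 16) the members went up and down together, with rho of 0.86 between miR-15b-5p and miR-16-5p, 0.82 between miR-16-5p and miR-497-5p and 0.67 between miR-195-5p and miR-497-5p (0.44 with the group means removed). The levels also went with the number of miRNA reads of the bone libraries, with a rho of 0.66 for miR-15b-5p, 0.64 for miR-16-5p, 0.47 for miR-497-5p and 0.31 for miR-195-5p, or 0.57, 0.79, 0.69 and 0.28 with the group means removed. The part of depth in the likeness was not tested. In serum (n = 32) the members were less alike. The neighbours miR-15b-5p and miR-16-5p had a rho of 0.30 and miR-195-5p and miR-497-5p one of 0.69 (0.44 and 0.36 with the group means removed), whereas miR-16-5p and miR-497-5p had one of -0.067 and miR-15b-5p and miR-497-5p one of -0.39.

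Among 198 miRNAs compared in serum, the most like miR-16-5p were miR-451-5p (0.69), miR-144-3p (0.66) and miR-25-5p (0.66), the first 2 of them erythrocyte miRNAs. With the group means removed the values were 0.50, 0.43 and 0.50. The most like miR-15b-5p were miR-326-3p (0.62), miR-106b-5p (0.61) and miR-20a-5p (0.61). For miR-497-5p they were miR-27b-3p (0.77), miR-99a-5p (0.76) and miR-676 (0.74). MiR-195-5p, which did not pass the filter in serum and was at 0 reads in 6 sera, was most like miR-497-5p (0.69), miR-152-3p (0.68) and miR-133a-3p (0.67), or 0.36, 0.55 and 0.43 with the group means removed. In serum miR-497-5p also went with the summed osteoblast and mesenchymal miRNAs (0.74) and the summed muscle miRNAs (0.65) and against the summed leukocyte and platelet miRNAs (-0.67).

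Among 243 miRNAs compared in bone, the most like miR-16-5p were miR-24-3p, miR-542-5p and miR-15a-5p (0.93 each), and the most like miR-15b-5p were miR-28-5p (0.91), miR-24-3p (0.91) and miR-542-5p (0.88). MiR-497-5p was most like miR-708-5p (0.93), miR-15a-5p (0.91) and miR-214-3p (0.86). MiR-195-5p was most like miR-139-5p (0.84), miR-214-3p (0.84) and miR-30c-5p (0.83). In bone the summed osteoblast and mesenchymal miRNAs had a rho of 0.60 with miR-15b-5p, 0.37 with miR-16-5p, 0.79 with miR-195-5p and 0.60 with miR-497-5p. With the group means removed these were 0.58, 0.32, 0.63 and 0.42. With the summed leukocyte and platelet miRNAs the values were 0.65, 0.50, 0.83 and 0.61 in the same order, or 0.40, 0.19, 0.61 and 0.23 with the group means removed. The summed erythrocyte miRNAs had a negative rho with each member in bone (-0.30, -0.25, -0.1 and -0.13 in that order).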

How the data were processed

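Small RNA libraries of 32 sera and 16 ulna bones were analysed. After adapter removal with cutadapt and a length cut at 17 nt, the authors used bowtie and miRDeep2 to map reads to the rat genome (up to 2 mismatches) and then to miRBase (up to 1 mismatch), and deposited counts per mature miRNA without normalization. The authors also deposited RPM per library, from which library totals were computed, and RPM per miRNA reads, which was not used. The 3 extraction and 7 other added controls (0.0552% to 16.1% of library reads) were left out.

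Groups were taken from the labels and compared in R 4.3.3 with edgeR 4.0.16 (glmQLFit, legacy = TRUE, robust = FALSE) after filterByExpr (minimum count 10, total 15), fitting the compared groups alone, with TMM factors set once per tissue (over all 48 libraries for bone against serum) and FDR < 0.2 after Benjamini-Hochberg adjustment. Single levels were compared by exact two-sided permutation of log2(CPM + 1). No 2 of 82 library pairs of a group agreed within counting noise (lowest chi-squared per degree of freedom 12.7). The limit of 3 reads for a count of 0 covers counting error only, whereas the SE of a log2FC comes from the edgeR fit and includes the spread between libraries.

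Alternatives were RLE size factors, miRNA read totals, DESeq2 1.42.0, no filter before the fit (then independent filtering over 50 quantiles up to 0.95), all groups of a tissue in 1 fit, the hemolysis ratio as a covariate (pseudocount 0.5), each replicate left out, and, added after the data were seen, both WT PTH bones under 100000 miRNA reads left out. Low counts were removed in the main fit because earlier results of these data showed calls without the filter where simulated data held no change. Calls made only without the filter are to be read with that limit. The fits were tested on simulated data. The members, the marker lists and the rule for miRNAs named as most alike (the 3 highest rho) were chosen with earlier results of these data known.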

Additional observations from a re-analysis of the deposited data

Results flagged for a closer look

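In 44 groups of values of the 4 members (4 or 5 libraries each), 5 had a highest or lowest library far from the others by Dixon's ratio of the gap to the range, where chance gives about 1 in 20. The bone of the second ZDF placebo rat had 26561 CPM of miR-16-5p against 15704 CPM in the next bone, and it was the library with the most miRNA reads. In serum of ZDF placebo rats the lowest level of miR-16-5p was 47584 CPM, below 74380 CPM in the next serum, and without this rat the log2FC of miR-16-5p under insulin was 0.37 (FDR = 0.372).

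MiR-497-5p was at 9213 CPM in 1 bone of PTH-treated ZDF rats, with the next at 4882 CPM, and at 4108 CPM in 1 serum of PTH-treated ZDF rats, with the next at 1218 CPM. MiR-195-5p was at 180 CPM (10 reads) in 1 serum of PTH-treated WT rats, with the next at 42.8 CPM.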

How the results depend on the processing

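All 4 members kept their direction and their call between bone and serum under every alternative. Over the members' log2FC values and those of miR-15a-5p and miR-322-5p, the other settings left 261 values on their side of the threshold, moved 15 past it and 5 back, and turned 12, and leaving out 1 rat turned 24 values of 11 results. The cause was not tested.

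The direction turned for miR-16-5p in ZDF against WT placebo serum (0.0049 with RLE, 0.13 with the hemolysis covariate, -0.34 to 0.12 without 1 rat) and in ZDF against WT PTH bone (-0.21 with read totals, -0.034 with DESeq2, -0.71 without both shallow bones, -0.44 to 0.56 without 1 rat). With the hemolysis covariate it turned for miR-497-5p in ZDF against WT placebo serum (0.20) and PTH in WT serum (0.27), and for miR-15b-5p under insulin (-0.46). It turned for miR-497-5p under PTH in WT bone (0.23 without both shallow bones) and for miR-195-5p under PTH in ZDF bone (-0.060 with RLE, -0.11 with totals, -0.067 with DESeq2, -0.67 to 0.25 without 1 rat).

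Without 1 rat, ranges that spanned 0 were, for miR-497-5p, -0.72 to 0.0068 in ZDF against WT serum under placebo, -0.47 to 0.41 under PTH and -0.90 to 0.22 under anti-scl, and -0.65 to 0.36 for PTH in ZDF serum. For miR-15b-5p they were -0.60 to 0.92 in ZDF against WT under anti-scl, -0.099 to 0.32 for PTH and -0.10 to 1.41 for anti-scl in ZDF serum, and for miR-16-5p -0.056 to 0.31 in ZDF against WT under anti-scl.

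Counts of calls without a filter before the fit were 38 for ZDF against WT serum under placebo (main 9), 1 under PTH and 10 under anti-scl (main 0), 2 and 5 for PTH in WT and ZDF serum (main 0), 17 and 18 for anti-scl in WT and ZDF serum (main 0 and 3), 30 and 11 for ZDF against WT bone under placebo and PTH (main 0 and 5), 50 for PTH in WT bone (main 23), 334 and 345 for bone against serum in WT and ZDF (main 170 each), and 5, 3 and 8 for the interactions of PTH in serum, anti-scl in serum and PTH in bone (main 0). DESeq2 called 9 for ZDF against WT under anti-scl, 5 and 12 for anti-scl in WT and ZDF serum, 32 and 29 for ZDF against WT bone under placebo and PTH, and 1 for the PTH interaction in bone. RLE gave 28 for ZDF against WT placebo bone and 13 for PTH in WT bone. Read totals gave 0 for anti-scl in ZDF serum, 59 for insulin and 14 for ZDF against WT placebo bone. All groups in 1 fit gave 1 for ZDF against WT under anti-scl and 11 for insulin, and the hemolysis covariate gave 1 and 0. Without both shallow bones there were 42 for ZDF against WT PTH bone, 0 for PTH in WT bone and 4 for the PTH interaction in bone. Without 1 rat the counts were 6 to 28 for ZDF against WT serum under placebo, 0 to 3 under anti-scl, 0 to 1 for PTH in WT serum, 0 to 12 and 0 to 24 for anti-scl in WT and ZDF serum, 5 to 50 for insulin, 0 to 81 and 3 to 18 for ZDF against WT bone under placebo and PTH, 0 to 84 and 0 to 8 for PTH in WT and ZDF bone, and 0 to 17 for the PTH interaction in bone.

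No paired analysis was possible because the labels number the libraries in 1 run over the whole series, give no replicate numbers within a group and do not link serum and bone of a rat. Depth limits miR-195-5p in serum and miR-15b-5p in bone most.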

Other observations

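The opposite strands of the precursors were read unevenly. Summed over libraries, miR-15b-5p had 3326 reads in serum and miR-15b-3p 478, or 6.96 reads of the 5p strand per read of the 3p strand, and in bone the counts were 538 and 128. MiR-16-5p had 197834 reads against 144 of miR-16-3p in serum and 128602 against 115 in bone, so that the 3p strand was nearly absent beside it. MiR-195-5p had 134 and miR-195-3p 31 reads in serum (4.32), and 7121 and 474 in bone (15.0). MiR-497-3p had 236 reads in bone against 53689 of miR-497-5p, and in serum it was at 0 in 30 of 32 libraries. Where they could be tested in WT placebo rats, the 3p strands differed between the compartments in the direction of their partners. The log2FC of bone against serum was -3.11 (SE 0.69) for miR-15b-3p and 2.64 (SE 0.50) for miR-195-3p. The value of miR-195-3p rests on 1 to 3 reads per WT placebo serum. MiR-497-3p was too low in serum for the test, and miR-16-3p was too low as well.

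In PTH-treated bones miR-497-3p held 29.2 ± 14.3 CPM in ZDF and 77.0 ± 17.5 CPM in WT rats (SD, n = 4 each). The groups did not overlap, as for 7.18% of the miRNAs tested, and the log2FC of -1.41 (SE 0.53) did not pass the edgeR test (FDR = 0.369). MiR-503-5p, which shares the bases 2 to 7 only, was too low to be tested between bone and serum, with 32.1 ± 14.4 CPM (SD, n = 4) in WT placebo bone and 40.7 ± 30.5 CPM (SD, n = 5) in WT placebo serum.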
